A study of Mus musculus with 2 samples.

Results

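The genes described here are 5 that govern serine protease activity at the keratinocyte surface, measured in mouse epidermis with and without the receptors for vitamin D and calcium. They are the proteases St14 (matriptase), Prss8 (prostasin) and Prss27 (marapsin, named Mpn on the array) and the inhibitors Spint1 (HAI-1) and Spint2 (HAI-2). Every probe assigned to one of these genes was taken, which gave 10 of the 25697 probes and 5 of the 17872 genes. The set was chosen by role, except that Prss27 was selected on its measured difference between the arrays, so that difference describes how it was picked and is support for nothing. CON was epidermis of littermate controls with the genotype VDR fl/fl CaSR fl/fl, and DKO was epidermis of mice with the same floxed alleles plus Cre recombinase driven by the keratin 14 promoter, so that the vitamin D receptor and the calcium-sensing receptor were removed from keratinocytes that use that promoter. Both groups were C57BL6 mice at postnatal day 5, the epidermis was lifted from the dermis of back skin with dispase, and each group is 1 array of RNA combined from 3 mice, per the labels. The protocol text calls the knockout pool VDR KO at one point, whereas the titles, genotypes and growth protocol name both receptors, and these were followed. With 1 array per group no difference below has a replicate check, no test was run, and the spread between mice cannot be seen.

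Matriptase is a transmembrane protease with its catalytic domain outside the cell, and prostasin is held at the surface by a lipid anchor. In mouse epidermis the pair acts in a common cascade that is needed for the processing of profilaggrin and for a working barrier, and loss of either protease in mice gives a leaky skin. HAI-1 and HAI-2 are transmembrane proteins whose Kunitz domains block matriptase and prostasin, and the balance between proteases and inhibitors is known to matter for the integrity of epidermis and hair follicles. Marapsin is a trypsin-like relative of prostasin found in stratified epithelia.

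The sequences just before the transcription start are given for Prss27 and for both inhibitor genes, and their CpG counts are compared below. Each run is the 250 bases before the annotated start, 5′ to 3′ on the gene's strand, from RefSeq on GRCm38.p6, a table that held 3 of the 5 genes. Capitals mark a match to a hexamer bound by nuclear receptors.
Prss27, chr17:24037993-24038242, plus strand: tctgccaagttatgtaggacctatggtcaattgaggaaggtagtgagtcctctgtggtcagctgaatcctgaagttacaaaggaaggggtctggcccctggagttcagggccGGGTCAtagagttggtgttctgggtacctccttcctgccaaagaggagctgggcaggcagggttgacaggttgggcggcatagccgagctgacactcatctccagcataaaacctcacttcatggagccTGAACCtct
Spint1, chr2:119237110-119237359, plus strand: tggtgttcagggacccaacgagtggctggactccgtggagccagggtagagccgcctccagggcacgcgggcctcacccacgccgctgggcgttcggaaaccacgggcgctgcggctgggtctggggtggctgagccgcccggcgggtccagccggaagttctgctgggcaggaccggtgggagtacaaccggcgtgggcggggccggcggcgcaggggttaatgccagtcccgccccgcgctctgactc
Spint2, chr7:29281978-29282227, minus strand: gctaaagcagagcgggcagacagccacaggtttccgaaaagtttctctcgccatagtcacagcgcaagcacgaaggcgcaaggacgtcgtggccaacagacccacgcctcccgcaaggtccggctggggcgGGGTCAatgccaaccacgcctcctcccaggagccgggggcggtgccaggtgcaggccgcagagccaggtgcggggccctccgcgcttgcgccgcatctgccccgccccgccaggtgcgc

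The hexamers were searched on both strands. AGGTCA is held by 14% of the 32851 mouse promoters in the table over the same length, GGGTCA by 11.6% and GGTTCA by 8.85%. The Prss27 window held 2 matches, the first to GGGTCA at position -138 from the start and the second, read on the opposite strand, to GGTTCA at position -9. The Spint2 window held GGGTCA at position -119, and none of the 3 hexamers was found in the Spint1 window. The vitamin D receptor with its partner RXR is known to favour such hexamers as a direct repeat. An exact repeat of AGGTCA with 3 bases between the copies was in none of the 3 windows and in 2 of all 32851. TGANTCA, the AP-1 motif, and TATAAA were also absent from these 3 windows and present in 6.75% and 12.4% of all promoters. GGGCGG, the GC box, which 32.7% of promoters hold, matched once in Prss27 and 3 times each in Spint1 and Spint2. The CpG count was 3 in Prss27, 26 in Spint1 and 24 in Spint2, against a median of 6 over all promoters. By CpG count the inhibitor promoters were thus in the upper range, where 9.59% and 12% of promoters hold as many or more. Prss27 was below the median, but 37.8% of promoters hold as few or fewer. A match is a description of letters, and no occupancy was measured.

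Signals are log2 intensity after background correction and quantile normalization of the raw array values, differences are DKO minus CON, and detected means a p-value under 0.01 for being brighter than the negative control probes of that array. The CON array had 10760 detected probes (41.9%) and the DKO array 10441 (40.6%), and 8472 genes were detected by their brightest probe on at least 1 array. The 3 probes of Vdr were detected on both arrays and differed by -0.12, -0.24 and -0.82, and the single probe of Casr failed detection on both, at 0.0338 for CON and 0.941 for DKO. Whether these probes lie in the deleted exons was not known, so they do not check the labels. Keratinocyte markers bore out the tissue. All 6 basal markers and 8 of 9 suprabasal and granular markers with a probe were detected on both arrays, with Dsg1a the exception. The markers of endothelium and skeletal muscle were all undetected. Of 7 dermal fibroblast markers 2 were detected on both arrays, Dcn (8.39 on CON and 8.52 on DKO) and Vim (8.98 and 8.93). The erythroid marker Hba-a1 and the nerve marker Mbp were also detected on both. The pools also differed in Y-linked RNA, since the brightest Ddx3y probe read 6.89 on CON and 10.31 on DKO, and the part of sex in the values below was not tested.

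Both matriptase probes read lower on the DKO array, the brighter one by little, and they disagreed on the size. The brighter of the St14 probes read 8.65 on CON and 8.50 on DKO, a difference of -0.16 or 1.11-fold lower. The dimmer probe read 8.09 on CON and 7.41 on DKO, a difference of -0.68 or 1.60-fold lower. Both probes thus leaned to CON, and neither reached 2-fold. The gap of 0.53 between them was wider than the median gap of 0.23 over the 1468 genes with exactly 2 detected probes, of which 246 (16.8%) had a gap as wide or wider. By the brighter probe St14 lay in the middle of the range, with 35.3% of detected genes as low or lower. Among probes, 540 of 11221 detected ones were as low as its dimmer probe or lower.

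Prostasin RNA was somewhat higher on DKO. The brighter Prss8 probe read 9.07 on CON and 9.63 on DKO, a 1.47-fold lead for DKO, and the other read 8.92 and 9.12, a lead of 1.15-fold. By the brighter probe 6.70% of detected genes differed by as much or more in this direction. The central 95% of the 1162 genes with a mean signal within 0.5 of it spanned -0.71 to 0.64, a range that holds the prostasin difference of 0.55. The raw intensity of the second Prss8 probe was 628.2 on CON and 625.3 on DKO, so its small lead appeared only after the arrays were scaled to each other.

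**Figure D1:**
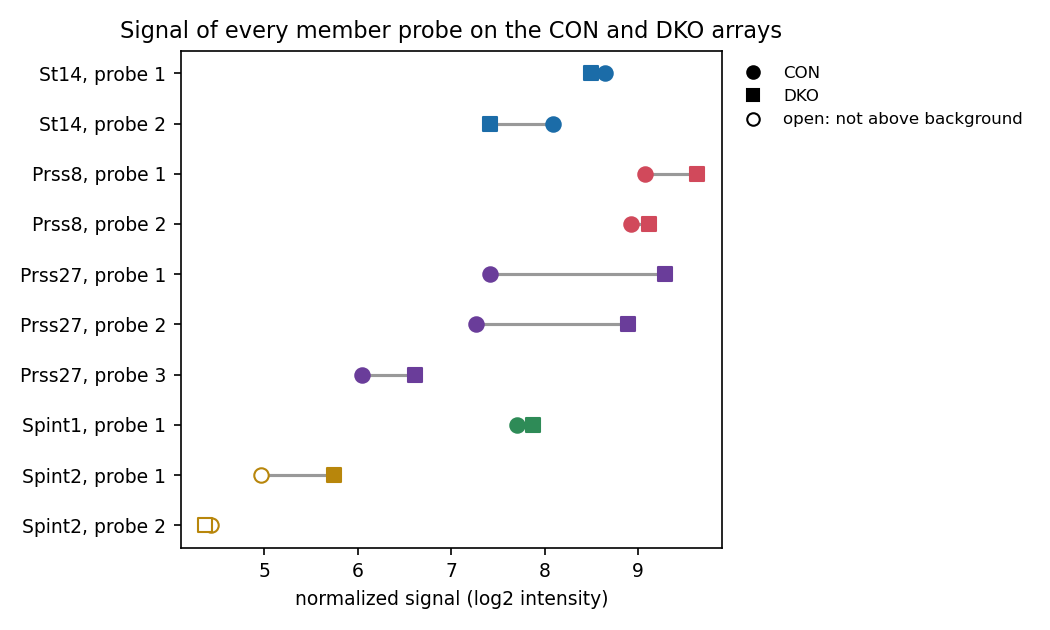
Normalized log2 signal of the 10 probes (rows, numbered from the brightest of each gene) on the CON array (circles) and the DKO array (squares), with open symbols where the probe was not above background. The first and second Prss27 probes are the widest pairs, at 1.88 and 1.64, both St14 probes have DKO to the left of CON, and Spint2 is the only gene with open symbols.

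Marapsin had the largest difference of the 5 genes and was higher on DKO with each of its 3 probes. The brightest Prss27 probe read 7.41 on CON and 9.29 on DKO, a 3.69-fold lead. The second read 7.26 and 8.89, 3.11-fold higher, and the third read 6.05 and 6.61, 1.47-fold higher. All 3 were detected on both arrays, and the raw intensities were 290.5 and 689.6 for the brightest, 273.3 and 554.6 for the second and 181.6 and 203.3 for the third. The brightest ranked 13 from the top among 8472 detected genes, which restates the choice of the gene. The third probe sat nearest to background. Its gap of 1.33 to the brightest put Prss27 among the 10 widest of 476 genes with 3 detected probes (2.10%). That gap contains the difference for which Prss27 was picked, so its place is not separate from the choice. The median range of the 476 was 0.38. All 3 probes were designed on the same RefSeq transcript, the tables do not say where along it they lie, and the reason for the gap was not tested.

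The inhibitors gave less to read. The only Spint1 probe read 7.70 on CON and 7.87 on DKO (1.12-fold), and 29.4% of detected genes were as high or higher. Its raw intensities were 331.8 and 331.1. HAI-1 RNA therefore read nearly the same on both arrays. The brighter Spint2 probe read 4.96 on CON, where it was not well above background (detection p-value 0.0489), and 5.74 on DKO (0.00125), at least 1.37-fold higher when CON is set to the lowest detected signal of its array. The other Spint2 probe had p-values of 0.529 for CON and 0.759 for DKO, which leaves it without a fold. Since Spint2 entered the detected genes only through DKO, the side on which it is brighter, its direction was fixed by that filter. HAI-2 RNA was thus barely measurable with these probes on either array.

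Of the 5 genes, 1 was at least 2-fold higher in DKO, namely Prss27, where 1.05% of all detected genes were, and 0 were at least 2-fold lower, where 1.39% were. By any amount 4 were higher and 1 was lower, where 47.1% and 52.6% of detected genes were. Nothing is read from these counts, because one gene was picked for its higher signal and another was detected on DKO alone. The median gene was at -0.02, with the central 95% spanning -0.84 to 0.80.

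**Figure D2:**
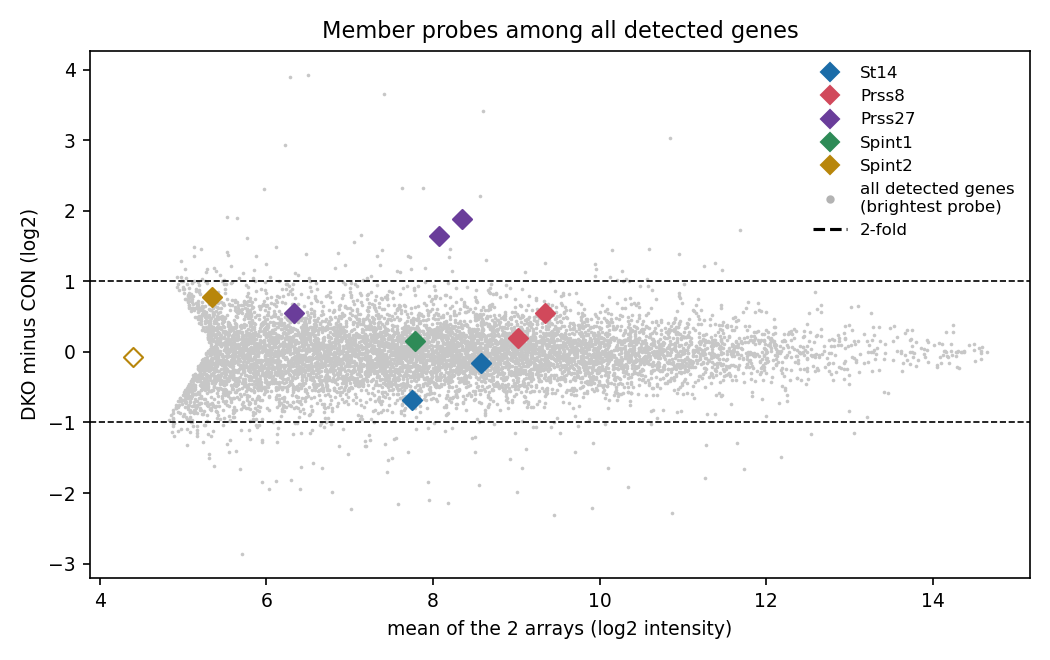
DKO minus CON log2 difference (vertical axis) against mean log2 signal of both arrays (horizontal axis), with all 8472 detected genes in grey, the 10 probes as diamonds (open where undetected on both arrays) and 2-fold as dashed lines. The first and second Prss27 probes lie above the cloud at 1.88 and 1.64, and the other 8 probes lie between -0.68 and 0.78.

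Set against the Spint1 probe of the same array, a comparison that a common scale factor does not enter, prostasin and matriptase probes differed in opposite directions. Relative to Spint1 the Prss8 probes were higher on DKO by 0.39 and 0.04, whereas the St14 probes differed by -0.32 and -0.84. With no background correction these values were 0.37, 0.06, -0.23 and -0.56. The Prss27 probes, from a gene picked for its difference, were at 1.72, 1.47 and 0.39, and at 1.28, 1.04 and 0.12 with no background correction. The third Prss27 probe was thus level with the brighter Prss8 probe and above the second. With no background correction it lay below the brighter Prss8 probe, and under median scaling it lay above it, at 0.41 against 0.35. Under median scaling of the arrays the second Prss8 probe was at -0.01 relative to Spint1, so its place above HAI-1 and the opposite direction of that probe were not kept. These are ratios of RNA signals between arrays and give neither the amounts of the proteins nor their activity.

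**Figure D3:**
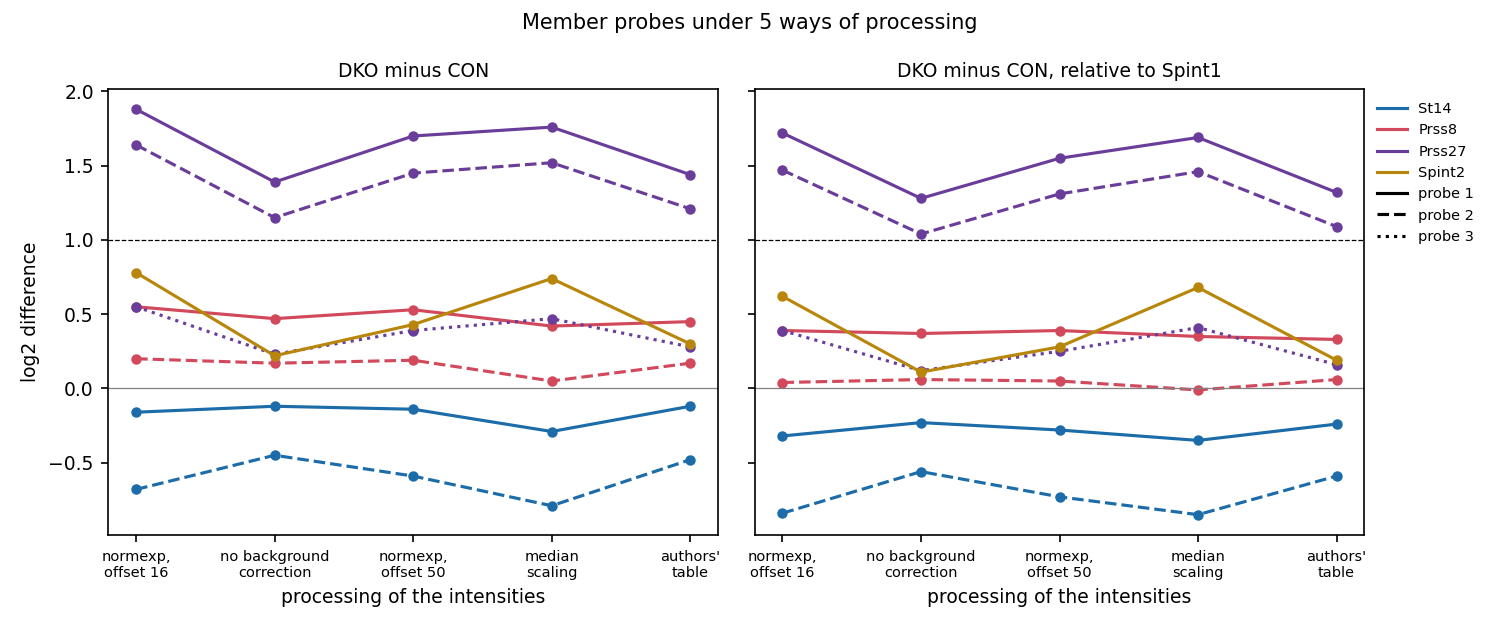
Log2 difference DKO minus CON of the 8 detected St14, Prss8, Prss27 and Spint2 probes under 5 ways of processing (left), and the same relative to the Spint1 probe (right), with colour for the gene, line style for the probe and a dashed line at 2-fold. The first and second Prss27 probes stay at or above 1.04 in all settings drawn, both St14 probes stay below 0, and the Spint2 probe ranges from 0.22 to 0.78 on the left.

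Other membrane-anchored serine proteases were mostly undetected. Of 19 further type II transmembrane proteases with a probe, the class of matriptase, 4 were detected, and of the 7 Tmprss11 genes among them 0 were. Tmprss4 read 10.01 on CON and 10.95 on DKO (1.91-fold), and its other detected probes differed by 0.40 and 1.05. Tmprss13, a protease with a known role in the mouse epidermal barrier, read 10.22 and 10.47, a difference of 0.26. Tmprss2 differed by -0.16 and Tmprss7 by -0.37. The median of the 4 was 0.05, beside -0.02 over all detected genes. By the brightest probe 0 of the 4 passed 2-fold in either direction, beside 1.05% of all genes higher and 1.39% lower, and 1 of the other Tmprss4 probes passed it.

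Of 15 further GPI-anchored or tryptase-like genes with a probe, 2 were detected. Prss22, which lies near Prss27 on chromosome 17, read 7.42 on CON and 7.72 on DKO, a difference of 0.29. Prss41 was detected on DKO only, at 5.49, at least 1.15-fold higher, and its direction was fixed by the detection filter. The mast cell tryptase genes Tpsb2 and Tpsab1 were undetected on both arrays, and of 8 mast cell markers with a probe 1 was detected on CON and 0 on DKO. These mast cell markers were at or near background, and the cell source of the trypsin-like signals described here was not tested.

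The genes around Prss27 on its chromosome lay within 2-fold where they were detected. Among the 5 genes on either side in the RefSeq order, 6 had a probe. Kctd5, the next gene, differed by 0.11, Pdpk1 read 7.40 and 7.09 (its other probe differed by 0.22), and Amdhd2 read 6.75 on CON and 6.05 on DKO. Prss30 and Atp6v0c were not above background on either array. The 4 detected neighbours thus differed by -0.70 to 0.29. Since Prss27 was picked for its own difference, nothing is read from the contrast with it.

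Of the listed substrates and partners of the cascade 20 had a probe and 15 were detected. Of the 15, 11 were higher and 4 lower on DKO, beside 47.1% and 52.6% of all detected genes. Past 2-fold 1 was higher and 0 were lower, beside 1.05% and 1.39%, and the median was 0.23 beside -0.02 over all genes. Mst1r, the receptor of the growth factor that matriptase can activate, was the gene past 2-fold, reading 7.15 on CON and 8.33 on DKO, 2.26-fold higher. Its log2 difference of 1.18 was 0.82 in the authors' deposited table and 0.77 with no background correction, both below 2-fold. Scnn1a, a subunit of the epithelial sodium channel that prostasin activates, read 8.26 and 9.10, 1.79-fold higher, while its partner subunits Scnn1g and Scnn1b differed by 0.42 and 0.23. Plau, the urokinase precursor cleaved by matriptase, differed by 0.45, and Cdcp1, a membrane protein cleaved by matriptase, by 0.55. Cdcp1 was dim, at 5.51 on CON. Its difference was 0.23 in the authors' deposited table and 0.18 with no background correction. F2rl1, the receptor PAR2 that lies downstream of the cascade, differed by 0.23. Flg2, a relative of filaggrin, read 12.28 on CON and 11.62 on DKO, 1.58-fold lower, and was the lowest of the list. Scnn1b and Scnn1g were named after their values were seen, so nothing is read from the direction that the channel subunits share.

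Among other proteases and inhibitors of the outer epidermis, the kallikreins and filaggrin-processing proteases had 16 detected genes, 12 higher and 4 lower on DKO, where 47.1% and 52.6% of all detected genes were, and their median was 0.17 beside -0.02. Ctsd, among the 4 lower genes, was detected on CON only, so its direction was fixed by the detection filter. By their brightest probe 0 of the 16 passed 2-fold, beside 1.05% of all genes higher and 1.39% lower. In this list Ctsc, a cysteine protease that activates serine proteases, differed by 0.81, and the kallikreins Klk9, Klk11, Klk13 and Klk5 by 0.71, 0.68, 0.65 and 0.63, and the other Klk11 probe by 1.08. Klk9 read 5.29 on CON, close to the lowest detected signal there of 5.28. Its difference was 0.29 in the authors' deposited table and 0.22 with no background correction. Furin, a proprotein convertase, differed by -0.07. Of 11 detected inhibitors outside the Kunitz pair, 7 were higher and 4 lower, beside the same shares of all genes, and the median was 0.07. The whey acidic protein family gene Wfdc12 and the stefin Stfa2, an inhibitor of cysteine proteases, were the 2 of them at least 2-fold higher, at 2.21 and 1.46, and 0 were at least 2-fold lower. Stfa3 differed by 0.65 (its other probe by 1.44) and Wfdc5 by 0.44. Wfdc2, one of the 4 lower genes, was not well above background on DKO, and its bound was at least 1.02-fold lower. Its direction too was fixed by the detection filter.

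**Figure D4:**
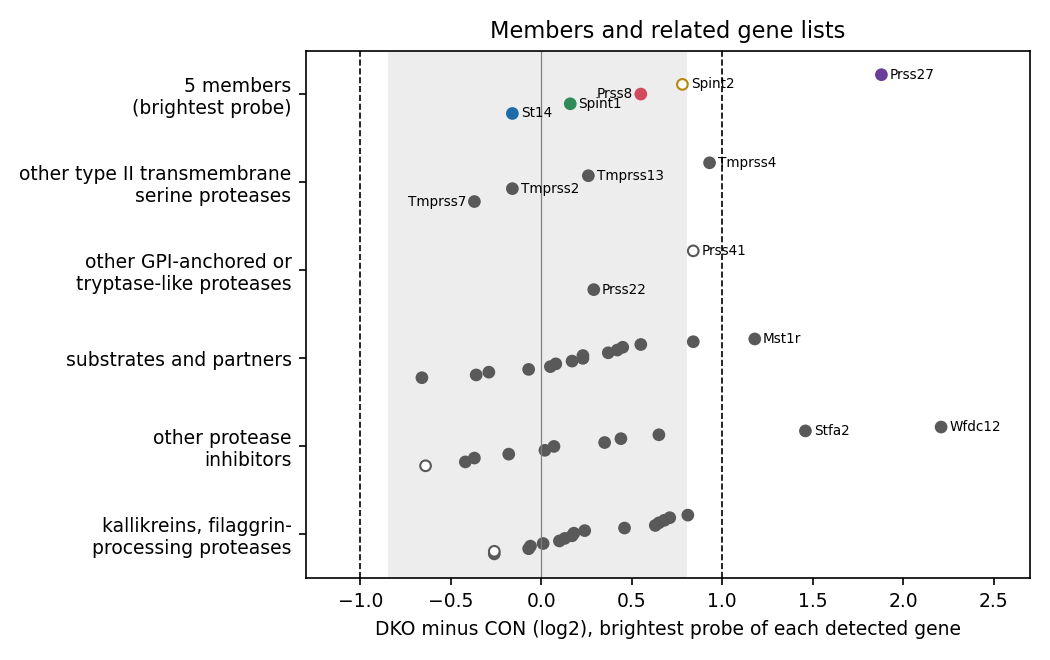
DKO minus CON log2 difference of the brightest probe (horizontal axis) for the 5 genes and for the detected members of the related lists (rows), with open symbols for genes detected on 1 array only, dashed lines at 2-fold and grey for the central 95% of genes. Prss27 at 1.88, Wfdc12 at 2.21, Stfa2 at 1.46 and Mst1r at 1.18 are the points past 2-fold.

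By the pair of signals on CON and DKO, and among named genes detected on both arrays, the genes nearest to Prss27 were Igfbp3 (7.48 and 8.94), a secreted binding protein of insulin-like growth factors, Wfdc12 (7.46 and 9.66) and Lgals6 (7.52 and 8.86), a galectin so like Lgals4 that its probe may read both. Their distances over the 2 arrays were 0.359, 0.378 and 0.439. The nearest genes to the others were Rnf8 for St14, Rassf7 for Prss8, Ubox5 for Spint1 and Rab39b for Spint2, at distances of 0.0120, 0.0697, 0.00933 and 0.340. Spint2 itself was not detected on CON, so genes dim on CON like it were outside this search. With only 2 arrays many genes lie close to any gene near the middle of the range, and brightness of different probes is no measure of relative RNA amount.

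Markers of other compartments of the skin also differed in signal between the pools, and in combined tissue fewer cells of a type and less RNA per cell cannot be told apart. The summed signal of hair shaft and inner root sheath markers was 35233 on CON and 12212 on DKO over 12 genes, with 10 of them detected and lower, and Krt25 and Lef1 undetected. Matriptase and its inhibitors are known to be made in follicles as well as in the surface epidermis. The summed signal of basal markers was 52819 on CON and 54399 on DKO over 6 genes, and that of suprabasal and granular markers 66649 and 72474 over 9 genes. That last sum is carried by its brightest genes, and within it Tgm3 differed by 0.94, Krt1 by 0.64, Tgm1 by 0.62 and Ivl by -0.44. Markers of the upper follicle, the companion layer and the outer root sheath summed to 35522 on CON and 30866 on DKO over 8 genes. Of these 3 were higher, Krt16 at 0.61, Krt6a at 0.06 and Krt17 at 0.01, and 5 were lower, with a median of -0.31. Among the 5 lower, Sox9 was at -1.10, past 2-fold, and Krt75 at -0.74. Melanocyte markers summed to 3266 on CON and 2486 on DKO, with all 4 detected genes lower. Langerhans cell markers summed to 6938 and 7836, with all 4 detected genes higher. Sebocyte markers summed to 10226 and 8062 and T cell markers to 1823 and 1603, each with genes on both sides. Hair shaft and inner root sheath markers were therefore far lower on the array where St14 was lower and Prss8 and Prss27 were higher. The other lists given here moved less as sums. The part of any of these lists in the St14, Prss8 and Prss27 differences was not tested.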

How the data were processed

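RNA of back-skin epidermis was read on 1 Illumina expression array per group. Per the file headers, the authors deposited for each probe its raw intensity and a detection p-value. The submitters' processing notes name GenomeStudio 2011.1. They also deposited a normalized intensity table on a linear scale, made by a method not given in the sources used, whose median is 148.8 on CON and 148.9 on DKO. The series values are equal to that table at every probe (0 differ), so their scale is linear and uncentred. The line over the column headers assigned each column to its group.

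Raw intensity was processed in R 4.3.3 by the neqc function of limma 3.58.1, which applied normexp with background estimated from the detection p-values and an offset of 16, followed by quantile normalization and log2. Probes were named through the RefSeq gene table of GRCm38.p6, 16938 by gene identifier, 7420 by accession, 465 by symbol and 552 by a unique older symbol, while 322 kept the array's name. The brightest probe stands for a gene, and all probes of the 5 genes are given. Where 1 array was not above background, a fold is a bound against the lowest detected signal, 5.28 on CON and 5.38 on DKO. The steps were run on simulated arrays in which only probes well above background were changed. Dim probes such as those of Spint2 and the third of Prss27 were thus not covered. No limma test could be run on 1 array per group, and precision is limited by having so few arrays.

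The 5 genes and the gene lists were chosen with earlier results of these data known. Named were the 5 genes, all detected members of both protease lists, up to 5 of each further list by absolute difference, neighbours of Prss27 and the genes nearest in signal. Scnn1b, Scnn1g, F2rl1 and Furin were added after their values were seen. Motifs were picked after the sequences were seen. Alternatives were other background corrections, median scaling, the authors' table, other detection filters and means over probes.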

Additional observations from a re-analysis of the deposited data

How the results depend on the processing

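No paired analysis was possible because each group is 1 array and the result comes from no test. A value counted as moved when it shifted by more than 0.30 (log2), the SD among detected probes of 1 gene, pooled over 2047 genes. The Prss27 difference of 1.88 was 1.39 with no background correction, 1.44 in the authors' deposited table, 1.36 as a mean over its detected probes or all probes and 0.55 by its dimmest probe, which is below 2-fold. By the dimmest detected probe St14 was at -0.68 in place of -0.16 and Prss8 at 0.20 in place of 0.55. Spint2, at 0.78, was 0.22 with no background correction, 0.30 in the authors' table, 0.43 with a normexp offset of 50 and 0.36 as a mean over all probes. Requiring detection on both arrays removed Spint2. Spint1 lay between 0.06 and 0.16 throughout. Median scaling shifted the median of all genes from -0.02 to -0.13, with Prss8 at 0.42 and Prss27 at 1.76. A shift of this size was too small to reverse either brightest probe, so it does not check their direction. The second Prss8 probe went from 0.20 to 0.05. St14 (-0.29) was already lower on DKO, so a shift this way could not change its direction.

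The 89 genes at least 2-fold higher and 118 lower became 23 and 27 with no background correction, 24 and 28 in the authors' table, 43 and 58 with an offset of 50, and 57 and 77 when both arrays had to be above background. With dim values at their bound they were 66 and 87. Values that keep background have smaller ratios by construction. Among the 268 alternative values of 30 other named genes, 25 moved and 0 of the genes past 2-fold changed sign. The dimmest probe and the bound were chosen after seeing the data. Leaving out a replicate was not possible with 1 array per group.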
